A study of Mus musculus with 30 samples.

Results

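Haematopoietic stem cells (HSCs) of wild-type (WT) mice aged 2 years were compared with those of WT mice aged 2 months. The rule took the 4 WT libraries of 2 years and the 4 of 2 months, 8 of the 30 libraries in the series, and the 16958 of 35727 genes in the table that reached a normalized count of at least 10 in at least 3 of the 30 libraries. All mice in these groups carried the label wild-type with no other allele or agent. WT libraries of 1 year (n = 5) and libraries labelled IL1R1 KO at 2 months (n = 3) and 2 years (n = 5) are used beside them. By its name the IL1R1 KO label stands for mice with Il1r1, which encodes the signalling interleukin-1 receptor, knocked out, but the sources used here name neither the allele nor the strain, nor the surface markers of the sort. Each library was made from 4000 to 5000 sorted cells by Smart-seq2, which copies whole polyadenylated transcripts and does not mark strand. Nothing in the labels ties a replicate to its own animal, so each p-value reflects a spread among libraries, some of which may be technical. That spread was estimated per gene within the groups of all 30 libraries, not in the 8 alone. The others in the fit were labelled IL1R1 KO at 1 year (n = 4) and germ-free at 2 months (n = 3) and 1 year (n = 2).

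HSCs are the rare bone marrow cells that renew themselves and give rise to all blood lineages. Most are quiescent, and they enter the cell cycle when blood cells are lost or inflammatory cytokines such as interleukin-1 and interferons reach the marrow. In old mice the HSC compartment is enlarged, gives fewer lymphoid cells, and carries a known set of surface and stress genes. By the series title, the study asks about interleukin-1 and the microbiome in this ageing.

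Estimated depth was 20.0 to 29.5 M reads at 2 months and 23.6 to 29.6 M at 2 years. HSC-defining markers were abundant in all 8 libraries, with a mean log2 level of 12.1 to 12.2 over the 10 genes at 2 months and 12.4 to 12.6 at 2 years. Transcripts of other blood cells were also present and uneven. Mpo, the myeloperoxidase of granulocyte precursors, had normalized counts of 392, 73276, 1159 and 60867 at 2 months and 11719, 2630.4, 3529 and 16541 at 2 years, so that replicates 2 and 4 at 2 months stood far above the others. Replicates 2 and 4 at 2 months also had the same 10 immunoglobulin V genes as their 10 most abundant, led by Igkv6-23 (0.961, 3072, 0 and 2615 at 2 months and 2.07, 0, 964 and 3.97 at 2 years) and Ighv1-39 (0, 1999, 0 and 1415 at 2 months and 12.5, 31.0, 0 and 0 at 2 years). Each of the 27 other pairs among the 8 libraries shared at most 4 of their 10. Whether these 2 libraries share cells was not tested, and results are given also with both averaged as 1 library, called the averaged pair in what follows. A further check left out the Mpo-rich libraries, meaning those of 2 months with Mpo above 10000. Replicates 1 and 4 at 2 years, at 11719 and 16541, were also above 10000 but were kept. In WT it thus set 2 libraries of 2 months against 4 of 2 years. Whether calls were lost there through the smaller number of libraries was not tested. Over the 3607 genes with a mean above 2000, the log2 difference between replicates 2 and 4 had an SD of 0.248, against 0.257 to 0.508 in the other pairs of 1 age.

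At 2 years 941 of the 16958 genes (5.55%) differed from 2 months by limma at an adjusted p under 0.05, which is what called means in the text, 664 higher (3.92%) and 277 lower (1.63%). In 783 of them, 556 higher and 227 lower, the 4 libraries of one age did not overlap the 4 of the other. Among all tested genes 1548 (9.13%) had no overlap. With only the 2 groups compared in the fit 342 genes were called, 269 higher and 73 lower. With the averaged pair in the full fit 496 genes rose and 147 fell. Without replicate 2 or 4 at 2 months 161 and 160 genes were lower, and without replicate 2 or 4 at 2 years 181 and 183. Rises were the larger changes, with a median of 1.02 on the log2 scale against 0.72 in size for falls. Of the rises 338 (50.9%) were at least 1 on the log2 scale and 46 at least 4. Of the genes that rose 15 were listed at 0 in all 4 libraries of 2 months. Changes are given as log2 differences ± SE with limma's adjusted p over all genes tested, and the scale is log2(value + 1) throughout. In bulk samples, more cells of a type that expresses a gene and more RNA per cell cannot be told apart.

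**Figure D1:**
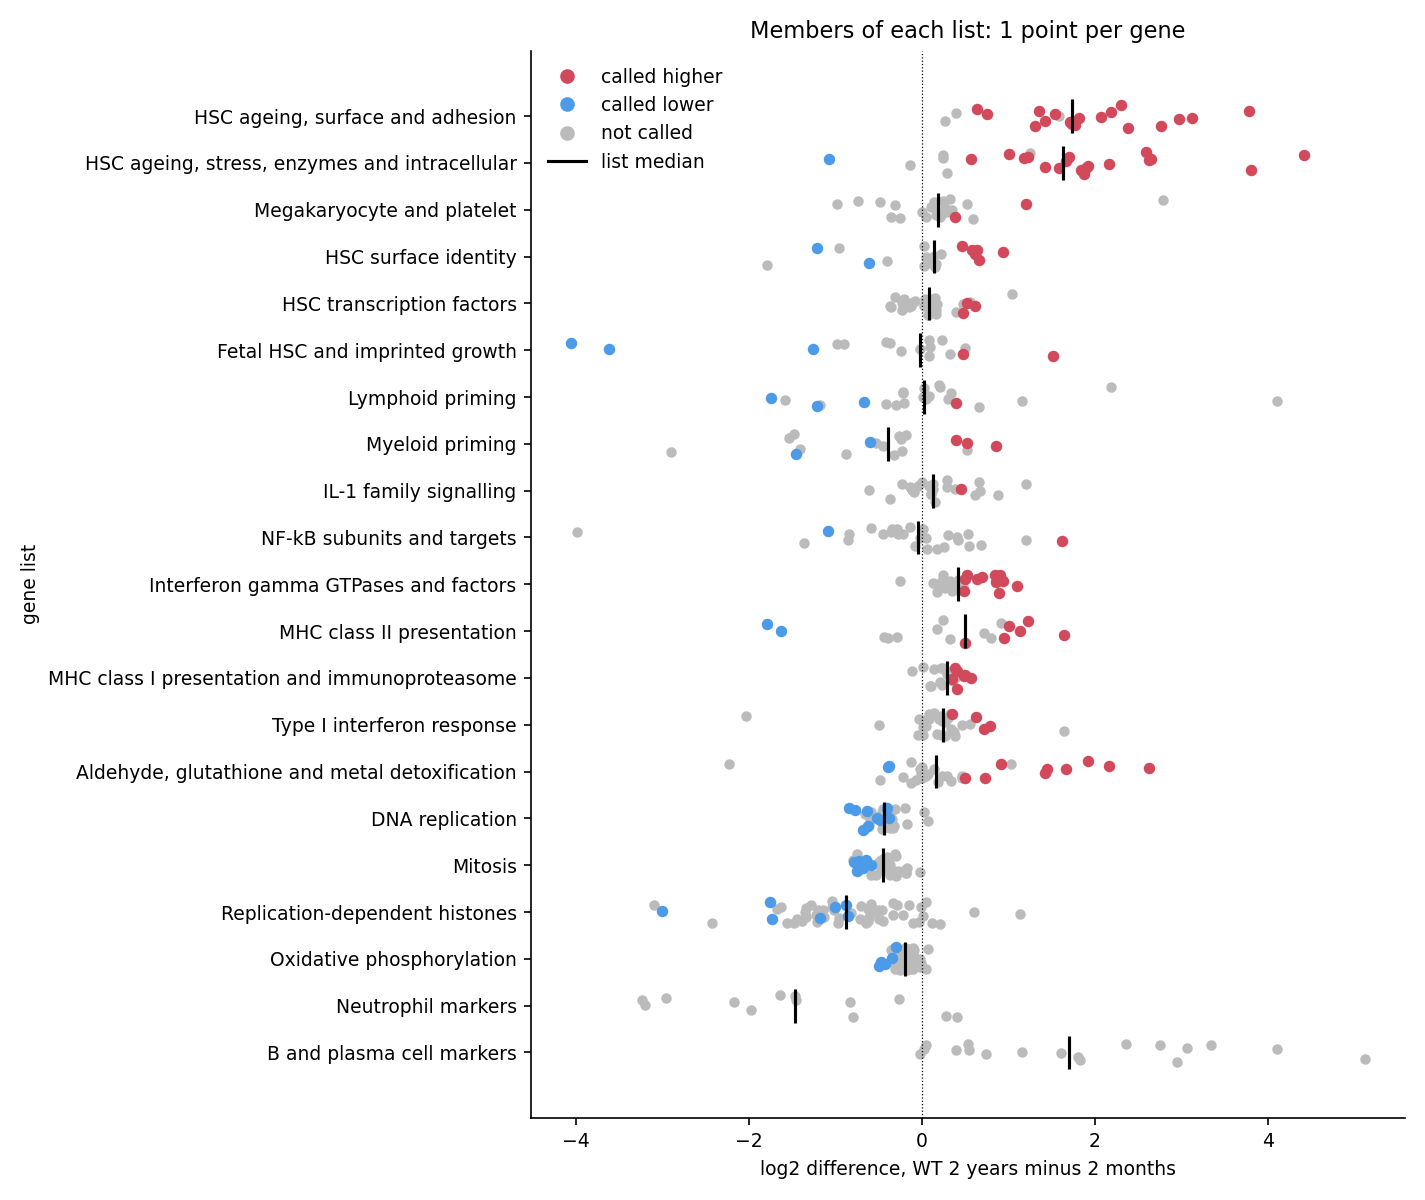
Each point is 1 tested gene, placed by its log2 difference between WT at 2 years and 2 months (horizontal axis) in its gene list (vertical axis), red for genes called higher, blue for genes called lower and grey for the rest, with a bar at the list median. The 2 HSC ageing lists have medians of 1.73 and 1.63, the DNA replication and mitosis lists -0.44 and -0.45.

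The surface and adhesion genes known from aged HSCs were the clearest group. Of 21 tested, 18 rose and 0 fell, with a median log2 difference of 1.73 against 0.01 for all genes. This list was compiled from knowledge of aged mouse HSCs and with earlier results of these data known. Selp (P-selectin, an adhesion molecule for leukocytes, chr1:164115264-164150026, GRCm38) had normalized counts of 1968, 2038, 1973 and 3275 at 2 months and 13203, 14874, 15263 and 18732 at 2 years. Every library of 2 years was above every library of 2 months, and the log2 change was 2.77 ± 0.17, adjusted p = 1.90e-12. Itgb3, the beta chain of the vitronectin and platelet fibrinogen receptors, had counts of 1566, 1273, 1696 and 1306 at 2 months and 4279.5, 4805, 4272 and 5801 at 2 years, a change of 1.71 ± 0.14, adjusted p = 6.29e-10. Gpr183, a receptor for oxysterols that guides immune cell migration (chr14:121952551-121965195), was at 323, 240.4, 187 and 411 at 2 months and 1571, 2508, 2404 and 2466 at 2 years. It rose by 2.98 ± 0.26, adjusted p = 6.22e-09, and the lowest of its aged libraries, replicate 1, was still above every young library. Slamf1 (CD150), which is itself used to sort HSCs, moved by less, at 2528, 2411, 2008 and 3037 at 2 months and 3541, 4065, 3620.3 and 4234 at 2 years, a change of 0.64 ± 0.12, adjusted p = 9.19e-04.

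Receptors for growth and inflammatory signals were among the members with the larger changes. Bmpr1a, a type 1 receptor for bone morphogenetic proteins (chr14:34410734-34503341), had counts of 27.7, 30.0, 42.3 and 33.1 at 2 months and 267, 315, 274 and 328 at 2 years. Osmr, the oncostatin M receptor subunit (chr15:6813577-6874969), had counts of 65.4, 21.5, 58.0 and 34.1 at 2 months and 326, 569, 767 and 783 at 2 years. Both had no overlap between the ages, and they rose by 3.13 ± 0.33, adjusted p = 1.68e-07, and by 3.79 ± 0.56, adjusted p = 4.46e-05. Further members that rose were Tm4sf1 (2.07 ± 0.20), Ramp2, which escorts the calcitonin receptor-like receptor to the surface (2.19 ± 0.26), the junctional adhesion molecule Jam2 (1.73 ± 0.18), the adhesion molecule Alcam (1.82 ± 0.19) and the NAD-consuming enzyme Cd38 (1.31 ± 0.22). Clca3a1 and the tight junction protein gene Cldn5, outside the list, had among the smallest p-values of all genes. Clca3a1 was at 1181, 1001, 822 and 1375 at 2 months and 6009, 6919, 6923 and 7434 at 2 years, a change of 2.66 ± 0.13, adjusted p = 1.12e-14. Cldn5 was at 746, 644, 538 and 622 at 2 months and 6615, 4768, 5256 and 5924 at 2 years, a change of 3.14 ± 0.22, adjusted p = 6.93e-11.

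Of 24 stress, enzyme and other intracellular genes of aged HSCs, 18 rose and 1 fell, with a median of 1.63. Nupr1, a stress-induced nuclear protein, was at 1325, 1455, 1282 and 936 at 2 months and 6179.5, 7643, 7535 and 8526 at 2 years. Sult1a1, a phenol sulfotransferase (chr7:126672865-126676432), was at 4395, 5261, 3278 and 4388 at 2 months and 17479, 13462, 16091 and 18002 at 2 years. Neither gene overlapped between the ages, with changes of 2.59 ± 0.18, adjusted p = 6.93e-11, and of 1.92 ± 0.11, adjusted p = 6.73e-13. Clu, the secreted chaperone clusterin, had counts of 1682, 3206, 1511 and 3082 at 2 months and 7351, 9295, 6928 and 10305 at 2 years and rose by 1.90 ± 0.22, adjusted p = 9.40e-07. Its libraries of 2 months formed a low pair (replicates 1 and 3) and a high pair (2 and 4), both under the aged range. Sbspon (chr1:15853862-15892722) had the largest change of the list, with counts of 169, 97.4, 155 and 120.3 at 2 months and 2523, 2783, 2530.2 and 3697 at 2 years (4.42 ± 0.32, adjusted p = 9.98e-11). Rorb, a nuclear receptor (3.81 ± 0.39), and Wwtr1 (TAZ), a co-activator of the Hippo pathway (2.65 ± 0.32), also rose, as did Amotl2, which binds such co-activators (1.84 ± 0.24). The exception was Ctla2a, an inhibitor of cathepsins, at 15292, 11156, 19875 and 11614 at 2 months and 12596, 3329, 7132 and 6685 at 2 years. It fell by 1.07 ± 0.30, adjusted p = 0.0328, and its groups overlapped, since replicate 1 at 2 years lay within the young range.

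**Figure D2:**
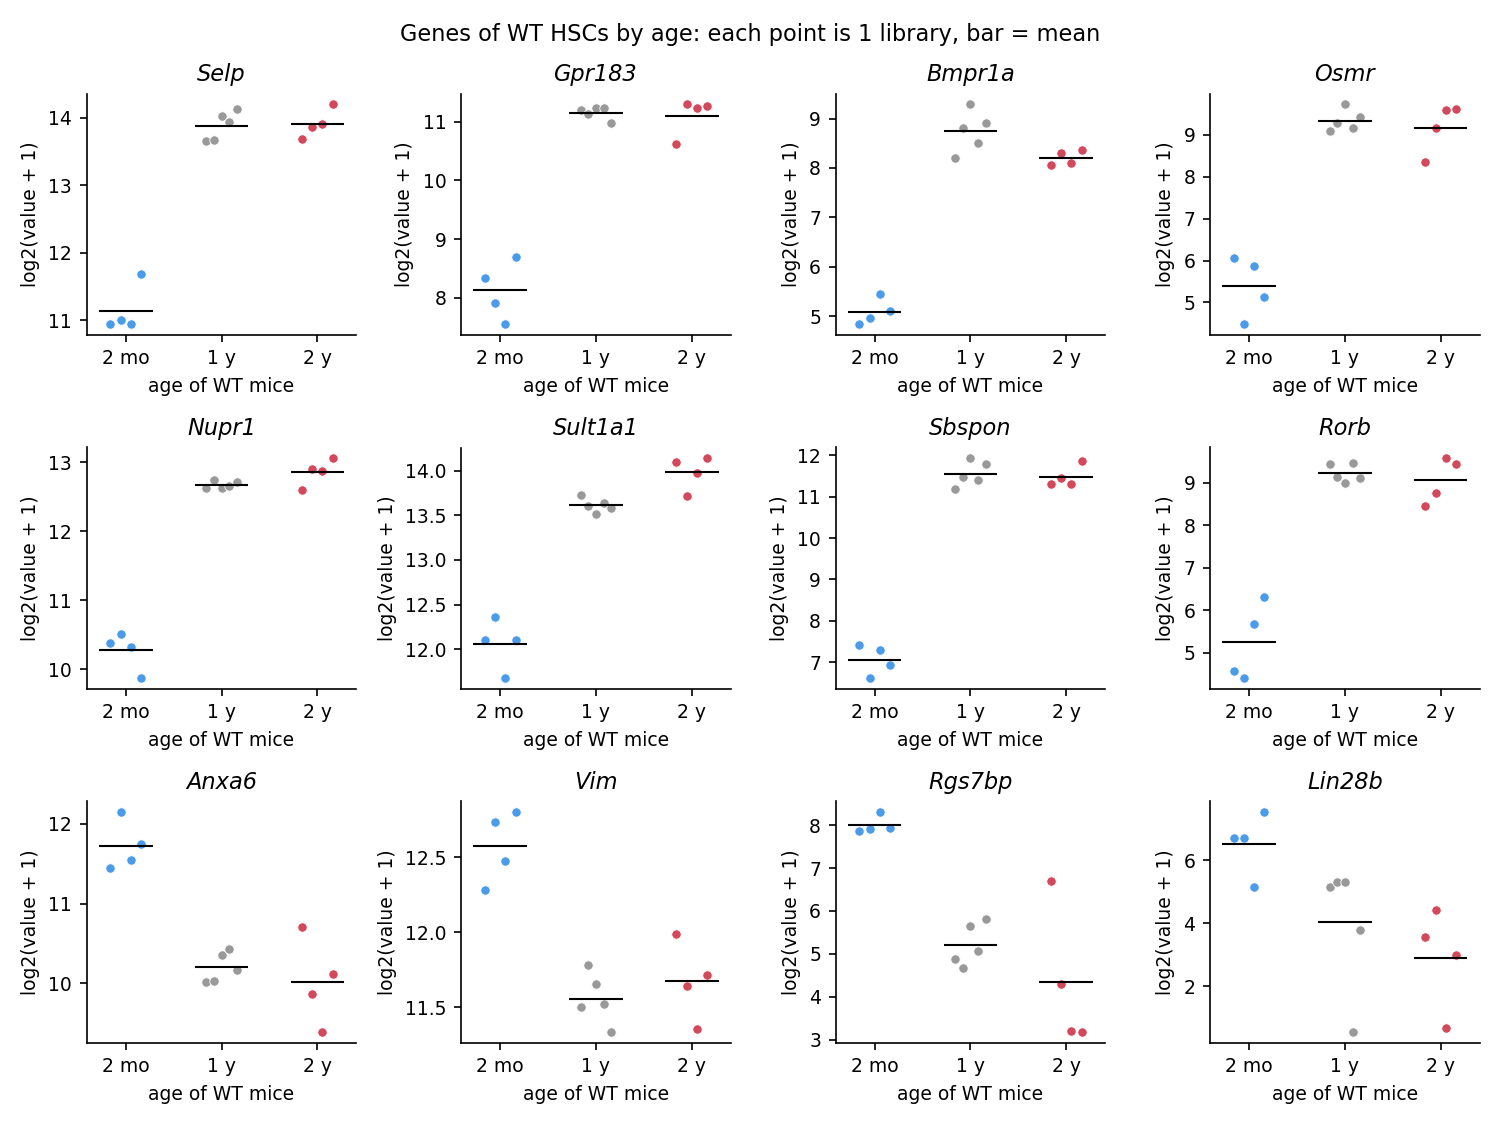
Log2(normalized count + 1) of 12 genes (vertical axes) in WT libraries of 2 months, 1 year and 2 years (horizontal axes), 1 point per library, with bars at group means. For the 8 genes that rose and the 4 that fell, all 4 libraries of 2 years lie on one side of the 4 of 2 months, and the means of 1 year lie nearer to those of 2 years than to those of 2 months.

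Detoxifying enzymes rose in part. Of 32 genes for aldehydes, glutathione and metals, 9 rose and 2 fell. The metallothioneins Mt1 and Mt2, which bind zinc and copper and are neighbours on chromosome 8, rose by 1.67 ± 0.25, adjusted p = 4.63e-05, and by 2.16 ± 0.36, adjusted p = 2.15e-04. Mt1 had counts of 965, 840.3, 853 and 792 at 2 months and 2278, 2761, 3354 and 2671 at 2 years. Gstm2, a glutathione S-transferase, was at 487, 407, 383 and 572 at 2 months and 2563, 2819, 3151 and 2849.7 at 2 years (2.63 ± 0.20, adjusted p = 1.44e-10), and its neighbour Gstm1 rose by 0.50 ± 0.10, adjusted p = 0.00230. These 2 genes are close paralogs, so reads may be split between them. Aldh1a1, a retinaldehyde dehydrogenase, was at 4263, 3741, 4454 and 2387 at 2 months and 8955, 10757, 9438 and 9654 at 2 years (1.42 ± 0.16, adjusted p = 5.50e-07). Gpx1 (glutathione peroxidase) and Cat (catalase), which remove peroxides, were the 2 that fell, by 0.38 ± 0.10, adjusted p = 0.0154, and by 0.40 ± 0.11, adjusted p = 0.0326.

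The genes with the largest rises were nearly silent in young HSCs. Mab21l2, a gene of eye development (chr3:86545581-86548629), was listed at 39.2, 0, 1.28 and 0 at 2 months and 213, 278, 1088 and 463 at 2 years. Its spread at 2 years was wide, with replicate 3 more than 2 times the next, and the change was 7.08 ± 0.88, adjusted p = 3.64e-06. Rassf10, of the Ras association domain family (chr7:112953962-112957457), was at 3.80, 0, 0 and 0 at 2 months and 92.5, 144, 223 and 108 at 2 years, a change of 6.51 ± 0.70, adjusted p = 2.55e-07. Kcnb2, a voltage-gated potassium channel subunit (chr1:15287254-15723750), was at 13.2, 0.973, 10.8 and 0.675 at 2 months and 236, 243, 628 and 297 at 2 years (6.06 ± 0.61, adjusted p = 8.05e-08). In these 3 genes no aged library was under 92.5 and no young one over 39.2.

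C4b, a complement component (chr17:34728380-34743882), had counts of 22.2, 32.6, 81.2 and 0 at 2 months and 618, 543, 1654 and 952 at 2 years and rose by 5.75 ± 0.85, adjusted p = 7.34e-05. Ntf3, the growth factor neurotrophin 3, was at 13.9, 0, 0 and 0 at 2 months and 89.1, 110.1, 75.1 and 109 at 2 years (5.60 ± 0.83, adjusted p = 4.99e-05). Ripk4, a kinase of epithelial differentiation, was at 10.6, 0, 62.8 and 11.4 at 2 months and 311, 388, 807 and 394 at 2 years (5.50 ± 1.10, adjusted p = 0.00229). The GABA-A receptor subunits Gabrb1 and Gabra4, which lie next to each other on chromosome 5 (Gabra4 at chr5:71569749-71658308), rose by 5.61 ± 1.14, adjusted p = 0.00225, and by 5.32 ± 0.99, adjusted p = 8.85e-04. Nlgn1, a synaptic adhesion protein, was listed at 0, 0, 0 and 0 at 2 months and 14.0, 36.1, 139.9 and 33.2 at 2 years (adjusted p = 7.16e-04). Other large rises were Limch1 (5.29 ± 0.99), the aldehyde dehydrogenase Aldh3a1 (5.13 ± 0.92), the calcium sensor Rcvrn (4.99 ± 0.53), the protease inhibitor Spint1 (4.94 ± 0.86), the lymphatic growth gene Ccbe1 (4.66 ± 0.62) and the protocadherin Pcdhga2 (5.00 ± 1.01). The calls of Gabrb1 and Pcdhga2 were lost without the 2-month libraries with Mpo above 10000, 6 over all genotypes (adjusted p = 0.0522 and 0.0590). Folds of genes this low in young cells depend on the pseudocount of 1.

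**Figure D3:**
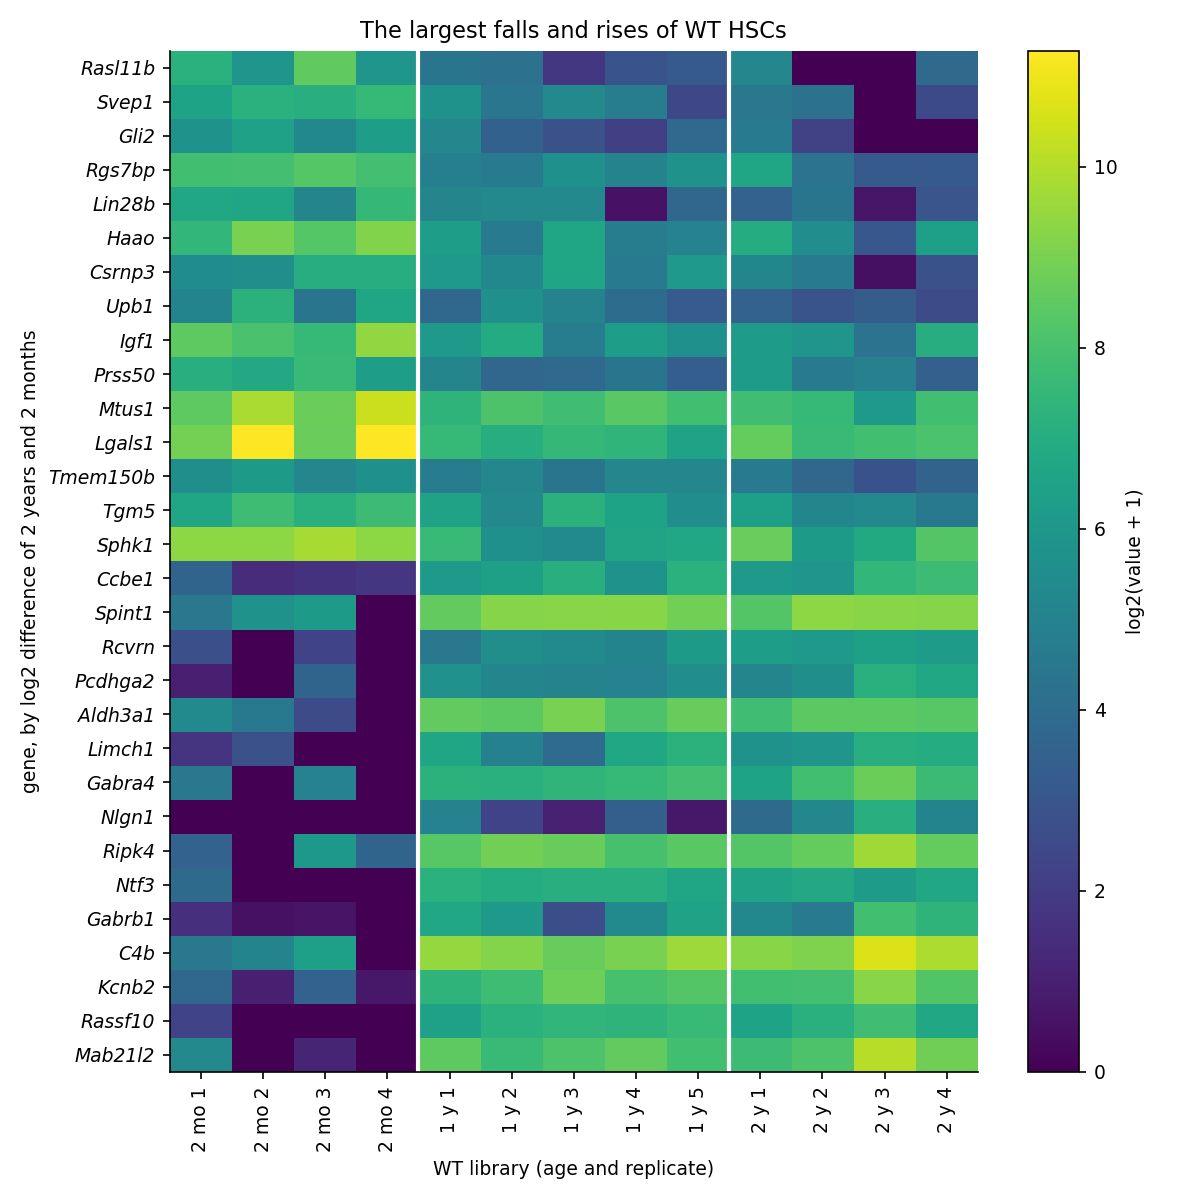
Log2(normalized count + 1), as colour, of the 15 genes with the largest falls (top) and the 15 with the largest rises (bottom) in 13 WT libraries, by age and replicate. The rises are at or near 0 in most libraries of 2 months and brighter at 2 years, and Lgals1 and Mtus1 are highest in replicates 2 and 4 at 2 months.

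Some genes that rose follow one another among the tested genes of a chromosome, picked out here after their values were seen. Genes that were not tested may lie between them. On chromosome 1, Kcnb2 (6.06 ± 0.61), the telomere protein gene Terf1 (0.58 ± 0.15) and Sbspon (4.42 ± 0.32) follow one another. On chromosome 6 the next tested gene after Vwf, the von Willebrand factor gene (1.01 ± 0.16, adjusted p = 1.10e-04), is Ntf3. The 2 lie far apart, since Vwf ends at base 125686679 and Ntf3 starts at 126101412. On chromosome 9 the scramblase genes Plscr1, Plscr2 and Plscr4 rose by 0.79 ± 0.12, 2.31 ± 0.21 and 0.60 ± 0.10 in that order. Tm4sf1 and Wwtr1 are neighbours on chromosome 3, and on chromosome 6 the lectin genes Clec1b, Clec9a and Clec1a rose by 1.202 ± 0.32, 1.27 ± 0.35 and 1.31 ± 0.19. The call of Clec1b was lost without 2-month library 1 or 3 or 2-year library 1 or 3 (adjusted p up to 0.105). Smart-seq2 reads carry no strand, so where genes lie close, reads running on from one cannot always be told from those of the next.

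Falls were fewer and smaller. The smallest p-value among them was that of Anxa6, an annexin that binds membranes in the presence of calcium (chr11:54979108-55033445), with counts of 2797, 4526, 2995 and 3428 at 2 months and 1677, 930.4, 670.5 and 1109.9 at 2 years. All aged libraries were under all young ones, a change of -1.70 ± 0.20, adjusted p = 9.40e-07. Ebi3, a subunit of interleukin-27 and interleukin-35, was at 2871, 2601, 2872 and 2658 at 2 months and 1729, 899, 809 and 634 at 2 years (-1.54 ± 0.18, adjusted p = 1.60e-06), and Vim, the intermediate filament vimentin, at 4986, 6825, 5694 and 7122 at 2 months and 4064, 3196, 2622 and 3359 at 2 years (-0.90 ± 0.13, adjusted p = 3.92e-05). Lst1 (-1.35 ± 0.22), the non-muscle myosin Myh10 (-1.21 ± 0.19), Rnase6 (-1.51 ± 0.25), the chromatin protein Hmga1 (-0.99 ± 0.16) and the annexin partner S100a10 (-0.79 ± 0.14) fell with no overlap. Rgs7bp, which anchors regulators of G protein signalling (chr13:104945904-105054930), was at 231, 238, 313 and 242 at 2 months and 103, 18.6, 8.28 and 8.10 at 2 years, a change of -3.65 ± 0.50, adjusted p = 1.41e-05, with replicate 1 at 2 years the highest of the aged values.

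Several of the largest falls were in genes of low level. Rasl11b, a small GTPase, was at 145, 58.6, 369 and 58.5 at 2 months and 36.6, 0, 0 and 13.8 at 2 years (-4.60 ± 0.93, adjusted p = 0.00214). Svep1, an extracellular matrix protein, was at 92.7, 145, 132 and 189.7 at 2 months and 21.6, 17.2, 0 and 4.80 at 2 years (-4.29 ± 0.93, adjusted p = 0.00418), and Igf1, insulin-like growth factor 1, at 362, 261, 187 and 701 at 2 months and 72.1, 58.9, 18.8 and 129 at 2 years (-2.53 ± 0.53, adjusted p = 0.00294). Haao, an enzyme of the kynurenine pathway, fell by 3.00 ± 0.66, adjusted p = 0.00477. Lin28b, the RNA-binding protein of fetal HSCs (chr10:45376620-45486395), was at 104, 102, 34.6 and 181 at 2 months and 10.7, 20.2, 0.599 and 6.91 at 2 years (-3.61 ± 0.92, adjusted p = 0.0165), and its call was lost without 2-month library 4 or 2-year library 3 (adjusted p up to 0.0772) and with the averaged pair (adjusted p = 0.0520). Lgals1 (galectin-1) was at 487, 2464, 410.0 and 2490.4 at 2 months and 389.6, 191, 235 and 267 at 2 years (-2.005 ± 0.47, adjusted p = 0.00787), highest in the 2 libraries with the most Mpo, and its call was lost with the averaged pair (adjusted p = 0.0519). Without the 2-month libraries with Mpo above 10000 its change was -0.77 (adjusted p = 0.241). Mtus1 had the same order, 357, 919.6, 426 and 1335 at 2 months and 227, 185, 68.6 and 233 at 2 years, and went from -2.02 ± 0.41, adjusted p = 0.00230 to -1.27 (adjusted p = 0.159). Other large falls were Csrnp3 (-2.98 ± 0.70), Prss50 (-2.13 ± 0.57), the transglutaminase Tgm5 (-1.98 ± 0.46), the sphingosine kinase Sphk1 (-1.98 ± 0.54), Gli2, a transcription factor of Hedgehog signalling (-4.22 ± 1.27), Upb1 (-2.73 ± 0.81) and Tmem150b (-1.98 ± 0.58). Without the same Mpo-rich libraries the adjusted p was also above 0.05 for Csrnp3 (0.0637), Svep1 (0.0723), Igf1 (0.0725), Haao (0.125), Tgm5 (0.181), Lin28b (0.195), Tmem150b (0.215), Gli2 (0.271) and Upb1 (0.305). Single libraries decided 5 of these calls. That of Gli2 was lost without 2-month library 1, 2, 3 or 4 or 2-year library 2, 3 or 4 (adjusted p up to 0.146) and with the averaged pair (adjusted p = 0.114). That of Upb1 was lost without 2-month library 2 or 4 or 2-year library 1, 2, 3 or 4 (adjusted p up to 0.154) and with the averaged pair (adjusted p = 0.144). That of Tmem150b was lost without 2-month library 1, 2 or 4 or 2-year library 2, 3 or 4 (adjusted p up to 0.116) and with the averaged pair (adjusted p = 0.0984). That of Sphk1 was lost without 2-month library 2, 3 or 4 or 2-year library 2 or 3 (adjusted p up to 0.123) and with the averaged pair (adjusted p = 0.0565), and that of Prss50 was lost without 2-month library 3 or 2-year library 2 or 4 (adjusted p up to 0.109).

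Fetal and imprinted growth genes moved in both directions, with 2 rises and 3 falls among 17. Hmga2, a fetal chromatin protein regulated with Lin28b, was at 141, 189.8, 141 and 164 at 2 months and 91.1, 71.1, 44.5 and 63.4 at 2 years (-1.25 ± 0.30, adjusted p = 0.00949). Plagl1, an imprinted zinc finger gene, was at 18.8, 26.8, 8.96 and 47.5 at 2 months and 2.43, 0, 0 and 0 at 2 years (-4.06 ± 1.22, adjusted p = 0.0466), and the call was lost without 2-month library 1, 2 or 4 or 2-year library 2, 3 or 4 (adjusted p up to 0.131) and with the averaged pair (adjusted p = 0.122). Dlk1, an imprinted Notch-family ligand, rose by 1.52 ± 0.45, adjusted p = 0.0447, and Ndn (necdin), which restrains the cell cycle, by 0.48 ± 0.12, adjusted p = 0.0193. The call of Dlk1 was lost without 2-month library 1, 2, 3 or 4 or 2-year library 2, 3 or 4 (adjusted p up to 0.128) and with the averaged pair (adjusted p = 0.0877), and that of Ndn was lost without 2-month library 1 or 3 or 2-year library 2 or 4 (adjusted p up to 0.0708). Without the 2-month libraries with Mpo above 10000 those of Hmga2 (adjusted p = 0.115), Dlk1 (0.0904) and Plagl1 (0.350) were lost.

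Of 25 genes of interferon gamma signalling 11 rose, by small amounts, and 0 fell (median 0.42, 24 of 25 above 0). The immunity-related and guanylate-binding GTPases, which attack vacuoles of intracellular microbes, made up most of the 11. Tgtp2 was at 4493, 4167, 3872 and 3906 at 2 months and 6714, 8448, 7233 and 8594 at 2 years (0.91 ± 0.13, adjusted p = 3.74e-05), Irgm2 at 2588, 2478, 1963 and 2708 at 2 months and 3872, 4517, 4093 and 5029.8 at 2 years (0.85 ± 0.15, adjusted p = 6.40e-04) and Gbp2 at 3807, 3463, 2978 and 2912 at 2 months and 4805, 5076, 5706 and 5671 at 2 years (0.70 ± 0.11, adjusted p = 1.28e-04). All 3 had no overlap between the ages. Tgtp1 (0.94 ± 0.16), Igtp (0.86 ± 0.17), Irgm1 (0.52 ± 0.12), Iigp1 (0.89 ± 0.20), Gbp4 (1.10 ± 0.26) and Ifi47 (0.49 ± 0.11) rose as well. So did Stat3, the transcription factor of the interleukin-6 family, at 10118, 8189, 9206 and 9061 at 2 months and 11789, 14016, 12527 and 13501 at 2 years (0.50 ± 0.09, adjusted p = 2.86e-04). Tgtp1 and Tgtp2 are near-identical genes, and Igtp overlaps Irgm2 in the annotation, so their single values share reads. Mean levels of the list were 10.8 in each of the 4 young libraries and 11.2 to 11.5 in the aged ones. Without any single one of the 8 libraries 10 to 12 members were called, and with the averaged pair 11.

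The promoters of these GTPases are shown because 6 of the 8 called members with a promoter in the RefSeq table hold an interferon motif there. Sequences are the 150 bases before the start site (RefSeq, GRCm38.p6), 5′ to 3′ on the gene's strand, with 2 motifs in capitals, both searched on both strands. The gamma-activated site is TTCNNNGAA. The interferon-stimulated response element is GAAA, any 2 bases and GAAA again.

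Tgtp2 (chr11:49064213-49064362, - strand): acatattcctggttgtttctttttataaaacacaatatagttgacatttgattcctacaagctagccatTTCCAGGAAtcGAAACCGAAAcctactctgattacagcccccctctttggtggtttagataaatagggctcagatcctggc

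Tgtp1 (chr11:48992247-48992396, - strand): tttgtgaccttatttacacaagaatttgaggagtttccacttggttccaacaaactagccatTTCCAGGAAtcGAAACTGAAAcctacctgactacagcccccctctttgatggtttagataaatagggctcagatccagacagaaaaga

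Irgm2 (chr11:58214827-58214976, + strand): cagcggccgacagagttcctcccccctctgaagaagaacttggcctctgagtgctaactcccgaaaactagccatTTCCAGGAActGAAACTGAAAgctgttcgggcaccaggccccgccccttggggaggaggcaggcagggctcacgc

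Igtp (chr11:58199406-58199555, + strand): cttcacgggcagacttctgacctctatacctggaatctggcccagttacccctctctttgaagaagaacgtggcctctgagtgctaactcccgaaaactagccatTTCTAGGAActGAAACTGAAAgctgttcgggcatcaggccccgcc

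Irgm1 (chr11:48871421-48871570, - strand): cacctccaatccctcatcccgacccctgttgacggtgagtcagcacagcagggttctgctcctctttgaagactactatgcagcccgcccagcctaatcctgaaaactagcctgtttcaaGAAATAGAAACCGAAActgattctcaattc

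Gbp2 (chr3:142620513-142620662, + strand): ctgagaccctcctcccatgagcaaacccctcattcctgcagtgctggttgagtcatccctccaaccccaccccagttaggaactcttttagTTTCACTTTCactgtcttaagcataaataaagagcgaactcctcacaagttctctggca

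In Tgtp1, Tgtp2, Irgm2 and Igtp both motifs stand 2 bases apart, in the same order. Irgm1 holds a pair of overlapping response elements, and Gbp2 has its one on the other strand. Over the 250 bases before the start, the response element was in 6 of 8 called members and the gamma-activated site in 4 of 8. Of all 27025 genes with such a promoter, 3.46% held the first and 8.13% the second. Among the 475 genes called higher with a promoter 6.11% held the response element, and among the 206 called lower 4.37%. A match is a description and not a binding site, and the paralogs share sequence by descent.

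Class II antigen presentation genes, which display peptides to helper T cells, split in 2 directions, with 6 rises and 2 falls among 17. H2-Eb1 was at 2205, 1152, 2201 and 1128 at 2 months and 5075, 4634, 6361 and 4045 at 2 years (1.65 ± 0.31, adjusted p = 0.00148) and H2-Ab1 at 5548, 2824, 5596 and 2915 at 2 months and 9631, 8833, 8572 and 8264 at 2 years (1.14 ± 0.25, adjusted p = 0.00449). In both, replicates 2 and 4 at 2 months had about the same level, well below replicates 1 and 3, and all 4 were under the aged range. H2-Aa rose by 1.01 ± 0.23, adjusted p = 0.00549, the invariant chain gene Cd74 by 1.23 ± 0.27, adjusted p = 0.00451, H2-DMb1 by 0.50 ± 0.13, adjusted p = 0.0224, and Ciita, the master regulator of class II genes, by 0.95 ± 0.27, adjusted p = 0.0313. H2-Ab1, H2-Aa and H2-Eb1 lie in a row on chromosome 17 (H2-Eb1 at chr17:34305867-34316674). The lysosomal protease Ctss and the costimulatory ligand Cd86 moved the other way. Ctss was at 806, 1784, 953 and 1603 at 2 months and 678, 267, 296 and 445 at 2 years (-1.63 ± 0.32, adjusted p = 0.00166) and Cd86 at 294, 571, 489 and 359.9 at 2 months and 259, 63.6, 162 and 75.8 at 2 years (-1.79 ± 0.41, adjusted p = 0.00648). B cells also express class II genes, and 17 of 18 B and plasma cell markers were above 0 in this comparison, with sums of 1676 to 16318 at 2 months and 20212 to 119180 at 2 years. With the level of those markers as a covariate 5 class II genes were called higher. It was 4 with the averaged pair, and also without the 2-month libraries with Mpo above 10000, where Cd86 went to -1.66 (adjusted p = 0.0864).

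A CCAAT box is known as part of the control region of class II promoters. The 3 called members that hold one are shown, in the same layout, with CCAAT on either strand in capitals.

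H2-Eb1 (chr17:34305717-34305866, + strand): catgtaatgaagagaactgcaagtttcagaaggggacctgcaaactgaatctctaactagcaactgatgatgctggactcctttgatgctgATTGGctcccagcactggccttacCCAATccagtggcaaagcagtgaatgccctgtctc

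H2-Aa (chr17:34287824-34287973, - strand): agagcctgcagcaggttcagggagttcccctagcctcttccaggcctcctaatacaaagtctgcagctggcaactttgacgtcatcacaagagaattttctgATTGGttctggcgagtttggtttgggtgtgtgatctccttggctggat

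H2-DMb1 (chr17:34153041-34153190, + strand): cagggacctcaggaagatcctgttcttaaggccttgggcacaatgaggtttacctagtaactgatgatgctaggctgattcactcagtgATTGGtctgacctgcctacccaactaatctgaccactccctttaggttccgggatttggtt

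CCAAT was searched over the same bases before the start as the interferon motifs. It was in 3 of the 4 called class II members with a promoter, beside 37.5% of all genes. It was also in 7 of 7 called class I and 6 of 7 called mitosis members with a promoter.

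Class I genes, which display peptides to cytotoxic T cells, rose by less. Of 21 members 7 rose and 0 fell (median 0.29). H2-T22 was at 4388, 4419, 4049 and 3912 at 2 months and 6244, 5724, 5934 and 5836 at 2 years (0.50 ± 0.09, adjusted p = 2.87e-04), H2-D1 rose by 0.40 ± 0.07, adjusted p = 8.13e-04, H2-K1 by 0.35 ± 0.08, adjusted p = 0.00637, H2-Q7 by 0.57 ± 0.11, adjusted p = 0.00128 and H2-T23 by 0.49 ± 0.09, adjusted p = 4.96e-04. These genes are similar in sequence and can share reads. Without the 2-month libraries with Mpo above 10000, 2 members of the list were called, and H2-T23, H2-Q7 and H2-K1 were not (adjusted p = 0.0723, 0.0876 and 0.203). Among 32 genes of the type I interferon response 4 rose, Rtp4 (0.79 ± 0.20), Zbp1, a sensor of unusual nucleic acids (0.72 ± 0.19), Lgals3bp (0.35 ± 0.08) and Ifit1 (0.62 ± 0.19), with a median of 0.25. With single libraries left out 1 to 6 members were called. The call of Ifit1 was lost without 2-month library 1, 2 or 3 or 2-year library 1, 3 or 4 (adjusted p up to 0.186) and with the averaged pair (adjusted p = 0.0616), that of Rtp4 was lost without 2-month library 3 or 2-year library 4 (adjusted p up to 0.0605), and that of Zbp1 was lost without 2-month library 1 or 3 or 2-year library 4 (adjusted p up to 0.0631). That of Lgals3bp was lost without the Mpo-rich libraries of 2 months (adjusted p = 0.0846), as was that of Ifit1 (0.0699).

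Interleukin-1 pathway genes gave 1 call. Of 23 members, 1 rose and 0 fell (median 0.13). Il1r1, the receptor, was at 256, 142, 182 and 137 at 2 months and 193, 312, 383 and 216 at 2 years (0.61 ± 0.28, adjusted p = 0.232), with overlap, and its partner Il1rap at 913, 502, 540.3 and 601 at 2 months and 596, 740.1, 587 and 778 at 2 years (0.11 ± 0.25, adjusted p = 0.878). The member that rose was Irak3, an inhibitor of receptor signalling, at 2570, 2732, 2087 and 3442 at 2 months and 3396, 3812, 3316 and 4194 at 2 years (0.46 ± 0.13, adjusted p = 0.0352). Its call was lost without 2-month library 1, 2 or 3 or 2-year library 2 or 4 (adjusted p up to 0.143). Among 28 NF-kB subunits and targets 1 rose and 1 fell. Bcl3, a nuclear cofactor of NF-kB, was at 131, 174, 183 and 182 at 2 months and 345, 426, 682 and 697 at 2 years (1.62 ± 0.25, adjusted p = 6.48e-05), and Rel, the c-Rel subunit, at 1305, 912, 1608 and 1086 at 2 months and 695, 553, 578 and 465 at 2 years (-1.08 ± 0.19, adjusted p = 5.77e-04), both with no overlap. Of 27 inflammatory cytokine and Toll-like receptors 3 rose, Osmr, the Toll-like lipopeptide receptor partner Tlr6 (1.18 ± 0.29, adjusted p = 0.0116) and the TNF receptor Tnfrsf1b (0.40 ± 0.11, adjusted p = 0.0215). The call of Tlr6 was lost without 2-month library 1 (adjusted p = 0.0517), and that of Tnfrsf1b was lost without 2-month library 4 or 2-year library 2 or 4 (adjusted p up to 0.0970). Tnfrsf1b had an adjusted p of 0.0600 without the Mpo-rich libraries of 2 months.

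Some of the genes that copy DNA and divide cells fell. Of 36 DNA replication genes 9 fell and 0 rose (median -0.44, 2 of 36 above 0), and of 35 mitosis genes 8 fell and 0 rose (median -0.45, 0 of 35 above 0). Dut, which keeps uracil out of DNA, was at 3729, 3597, 3222 and 3327 at 2 months and 2312, 2348, 1886 and 2531 at 2 years (-0.62 ± 0.11, adjusted p = 3.79e-04). Cks2, a partner of cyclin-dependent kinases, was at 2129, 1949, 1554 and 1789.5 at 2 months and 1209, 1055, 1065 and 1114 at 2 years (-0.73 ± 0.15, adjusted p = 0.00243). Mki67, the marker of dividing cells, was at 2788, 3609.9, 3059.5 and 3447 at 2 months and 2448, 1337, 2312 and 2036 at 2 years (-0.70 ± 0.16, adjusted p = 0.00815), and its call was lost without 2-year library 2 (adjusted p = 0.0554). Pcna, the sliding clamp of DNA polymerases, was at 6078, 6173, 5354 and 5446 at 2 months and 4585, 3727, 4672 and 4540.4 at 2 years (-0.40 ± 0.10, adjusted p = 0.00998), and its call was lost without 2-year library 2 (adjusted p = 0.0587). In all 4 genes the young libraries were above the aged ones. The replication genes Prim1 (-0.64 ± 0.14), Lig1 (-0.68 ± 0.14) and Clspn (-0.77 ± 0.23) and the mitosis genes Birc5 (-0.68 ± 0.16), Cenpa (-0.75 ± 0.18) and Ect2 (-0.78 ± 0.22) also fell. The call of Cenpa was lost without 2-year library 3 (adjusted p = 0.0689).

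Of 59 replication-dependent histone genes, 7 fell and 0 rose (median -0.87). Hist1h2ap was at 11248, 14583, 10789 and 12823 at 2 months and 5114, 8400.4, 3888 and 5177 at 2 years (-1.18 ± 0.19, adjusted p = 1.50e-04), and it shares reads with near-identical copies. With single libraries left out, 4 to 9 replication, 3 to 9 mitosis and 3 to 12 histone genes were called lower. With the averaged pair 4, 4 and 3 were called. Without the 2-month libraries with Mpo above 10000, it was 5, 1 and 1, with adjusted p of 0.180 for Mki67, 0.117 for Cenpa and 0.201 for Birc5. Granulocyte precursors divide, and Mki67 was highest in replicates 2 and 4 at 2 months, the libraries with the most Mpo. With the mean level of neutrophil and primary granule markers as a covariate 7 replication, 8 mitosis and 9 histone genes were called lower. The part of granulocyte precursors in these falls was not tested.

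Inhibitors and regulators of entry into the cycle went both ways. Cdkn2c, an inhibitor of the G1 kinases Cdk4 and Cdk6, was at 139, 227, 111 and 205 at 2 months and 352, 407, 435 and 495 at 2 years (1.35 ± 0.27, adjusted p = 0.00199). Ccnd1, the G1 cyclin D1, was at 1452, 1499, 1406 and 1623 at 2 months and 1848, 2526, 2482 and 2528 at 2 years (0.64 ± 0.16, adjusted p = 0.0121), and the retinoblastoma gene Rb1 rose by 0.92 ± 0.22, adjusted p = 0.0106. E2f1, the transcription factor that Rb1 restrains, fell by 0.94 ± 0.27, adjusted p = 0.0382. The call of Rb1 was lost without 2-month library 3 (adjusted p = 0.0588), and that of E2f1 was lost without 2-month library 1, 2 or 3 or 2-year library 2 or 3 (adjusted p up to 0.123). Among 24 p53 targets 2 rose, Gadd45g at 647, 568, 789 and 653 at 2 months and 1522, 1412, 2532 and 1534 at 2 years (1.36 ± 0.18, adjusted p = 9.27e-06) and Perp (1.05 ± 0.27, adjusted p = 0.0192). The call of Perp was lost without 2-month library 1 or 2 or 2-year library 2 (adjusted p up to 0.0953). Of 60 oxidative phosphorylation genes 5 fell and 0 rose (median -0.19), each by under 0.5 on the log2 scale, such as Cox5a (-0.49 ± 0.12, adjusted p = 0.0146), whose call was lost without 2-month library 2 or 4 or 2-year library 3 (adjusted p up to 0.0711) and with the averaged pair (adjusted p = 0.0655). Between 0 and 6 of them were called when a single library was left out, and 0 with the averaged pair or without the Mpo-rich libraries of 2 months. Of 79 cytosolic and 78 mitochondrial ribosomal protein genes, 39 proteasome genes and 13 mitochondrially encoded genes, limma called 0, and at an unadjusted p under 0.05 the counts were 10, 15, 7 and 3.

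**Figure D4:**
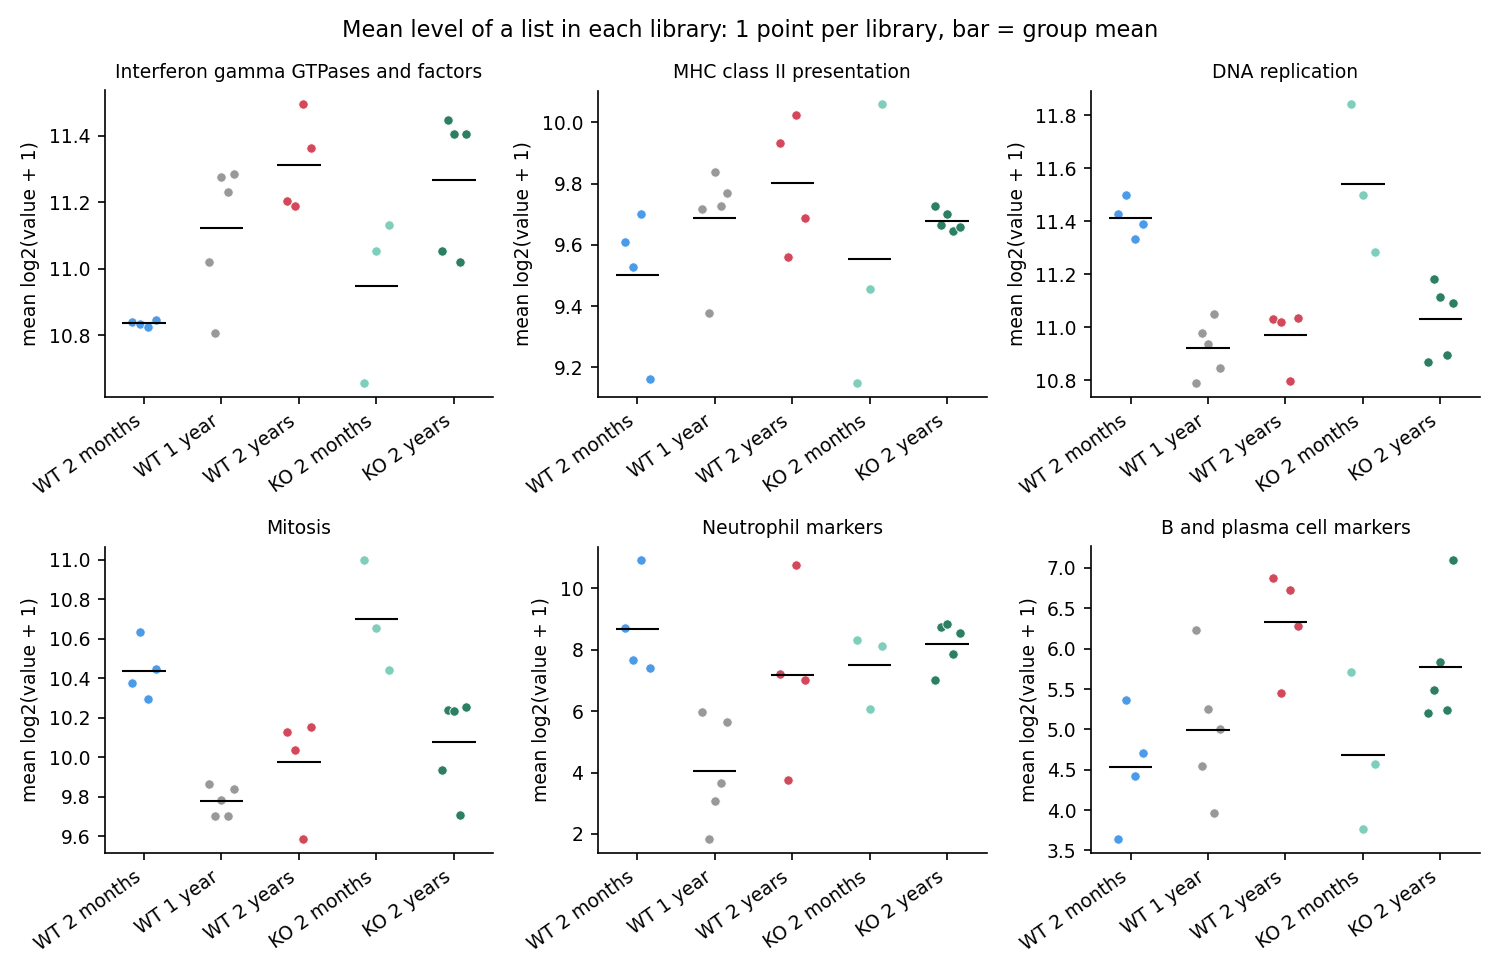
Mean log2(normalized count + 1) over the members of 6 lists (vertical axes) in each library of 5 groups (horizontal axes), with bars at group means. Interferon gamma, replication, mitosis and B and plasma cell marker levels of WT at 2 years lie apart from those of WT at 2 months. Class II and neutrophil marker levels overlap.

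Markers of HSC identity moved in both directions, more often up. Of 19 surface identity genes 6 rose and 2 fell. Procr (EPCR), the protein C receptor on HSCs, was at 4009, 3865, 3982 and 3851 at 2 months and 5465, 7216, 5408 and 6172 at 2 years (0.62 ± 0.11, adjusted p = 4.96e-04), and Esam (0.66 ± 0.15), Ly6a (Sca-1, 0.46 ± 0.12) and Fgd5 (0.58 ± 0.15) rose too. Cd34 (-0.61 ± 0.15) and Flt3, the cytokine receptor of multipotent progenitors (-1.21 ± 0.36, adjusted p = 0.0418), were the 2 that fell. Flt3 was at 1140.3, 702, 1385 and 1038 at 2 months and 1207, 391, 266 and 317 at 2 years, where replicate 1 at 2 years lay within the young range, and its call was lost without 2-month library 1, 3 or 4 or 2-year library 2, 3 or 4 (adjusted p up to 0.146) and with the averaged pair (adjusted p = 0.0527). The call of Cd34 was lost without 2-month library 3 or 2-year library 3 or 4 (adjusted p up to 0.0662), that of Fgd5 was lost without 2-month library 4 (adjusted p = 0.0587) and with the averaged pair (adjusted p = 0.0543), and that of Ly6a was lost without 2-year library 4 (adjusted p = 0.0647). Among 28 HSC transcription factors 3 rose, Mycn (0.62 ± 0.18) and Ndn among them, and 0 fell. The call of Mycn was lost without 2-month library 1 or 3 or 2-year library 2 or 4 (adjusted p up to 0.140). Without the 2-month libraries with Mpo above 10000 the calls of Esam (adjusted p = 0.0616), Fgd5 (0.197) and Flt3 (0.0554) were lost.

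Lineage genes gave few calls. Of 24 lymphoid priming genes 1 rose, Mef2c (0.40 ± 0.08, adjusted p = 0.00205), and 3 fell, Flt3, the chromatin organiser Satb1 (-1.74 ± 0.49, adjusted p = 0.0304) and Ikzf2 (-0.66 ± 0.17, adjusted p = 0.0145). The call of Satb1 was lost without 2-month library 1 or 3 or 2-year library 2 or 4 (adjusted p up to 0.145) and with the averaged pair (adjusted p = 0.05005), and that of Ikzf2 was lost without 2-month library 4 or 2-year library 4 (adjusted p up to 0.0650). Of 18 myeloid priming genes 3 rose, Csf3r, the G-CSF receptor (0.53 ± 0.13, adjusted p = 0.0124), Id2 (0.85 ± 0.23, adjusted p = 0.0219) and Mef2c, and 2 fell, Spi1 (PU.1), a master factor of myeloid cells, at 3211, 4322, 3863 and 3840 at 2 months and 2635, 2483, 2275 and 2637 at 2 years (-0.60 ± 0.11, adjusted p = 0.00115), and Csf2rb (-1.45 ± 0.36, adjusted p = 0.0121). The call of Csf3r was lost without 2-month library 1 or 2-year library 4 (adjusted p up to 0.0741), that of Id2 was lost without 2-month library 1 or 2-year library 3 (adjusted p up to 0.109), and that of Csf2rb was lost without 2-month library 2 or 2-year library 2 or 4 (adjusted p up to 0.0705) and with the averaged pair (adjusted p = 0.0501). Megakaryocyte and platelet genes rose in 2 of 24, Clec1b (1.202 ± 0.32, adjusted p = 0.0215) and Gng11 (0.39 ± 0.11, adjusted p = 0.0278), with a median of 0.19. The call of Clec1b was lost without 2-month library 1 or 3 or 2-year library 1 or 3 (adjusted p up to 0.105), and that of Gng11 was lost without 2-month library 1, 2 or 3 or 2-year library 1, 3 or 4 (adjusted p up to 0.0721). Without the Mpo-rich libraries of 2 months the calls of Satb1 (adjusted p = 0.0598), Ikzf2 (0.207), Csf2rb (0.203) and Gng11 (0.0642) were lost.

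Markers of other cells passed the test in few cases. Of 18 B and plasma cell markers limma called 0, while 5 had an unadjusted p under 0.05 and the median was 1.71. Without the 2-month libraries with Mpo above 10000, 3 were called higher. Among all 18 markers, Igkc was at 127, 7026, 3.83 and 6133 at 2 months and 14462, 8224, 9330.1 and 35763 at 2 years. Pax5, the defining B cell factor, was at 0, 0, 11.6 and 0 at 2 months and 12.2, 6.60, 0 and 0 at 2 years. Of 13 neutrophil markers 0 were called and 1 had an unadjusted p under 0.05, with summed levels of 7812 to 43425 and 584 to 44402. Of the 9 primary granule markers 2 rose, Prtn3 (0.73 ± 0.18) and Gstm1, while Mpo (-0.04 ± 2.32) and Elane (-0.12 ± 2.24) did not pass. The call of Prtn3 was lost without 2-month library 1 or 3 (adjusted p up to 0.0647). Klrb1c (NK1.1), a receptor of natural killer cells, was at 306, 621, 300.2 and 519 at 2 months and 1742, 1737, 1859 and 2447 at 2 years (2.21 ± 0.22, adjusted p = 6.18e-08). Cd3e, the defining T cell gene, was at 0 in 3 of 4 young and 3 of 4 aged libraries, and Nkg7, a granule gene of cytotoxic cells, fell by 1.203 ± 0.31, adjusted p = 0.0184. The call of Nkg7 was lost without 2-month library 2 or 4 or 2-year library 3 (adjusted p up to 0.0893) and with the averaged pair (adjusted p = 0.0710). Without the Mpo-rich libraries of 2 months its adjusted p was 0.149. Of the 54 immunoglobulin V genes tested 7 rose.

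Few genes differed between 1 and 2 years. WT at 2 years and at 1 year differed in 2 of 16958 genes (0.0118%), both of them immunoglobulin V segments, Ighv14-3 and Igkv4-55, named here after their values were seen. At an unadjusted p under 0.05 the count was 739. Normalized counts of Selp were 15176 ± 2226 (SD, n = 5) in the 1-year libraries and 15518 ± 2321 (SD, n = 4) in the 2-year ones, Gpr183 at 2281 ± 168 (SD, n = 5) and 2237 ± 446 (SD, n = 4), and Rassf10 at 151 ± 40.3 (SD, n = 5) and 142 ± 58.3 (SD, n = 4). Cdk5rap1, an enzyme that modifies mitochondrial transfer RNA, showed another order, with a 2-month level of 483 ± 25.7 (SD, n = 4), a 1-year level of 679 ± 225 (SD, n = 5) and a 2-year level of 1560 ± 337 (SD, n = 4). Its difference between 2 years and 1 year was 1.24 ± 0.26, adjusted p = 0.186. Mitosis genes were above their level of 1 year in 33 of 35 members at 2 years (median 0.20), and Mki67 differed by 0.31 ± 0.15, adjusted p = 1. Markers of other cells lay above their level of 1 year in the same libraries. It was so for 13 of 13 neutrophil markers (median 2.97), 14 of 14 monocyte (1.498), 8 of 9 mast cell (2.16), 16 of 18 erythroid (1.00) and 15 of 18 B and plasma cell markers (1.45). Their part in the level of the mitosis genes was not tested.

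**Figure D5:**
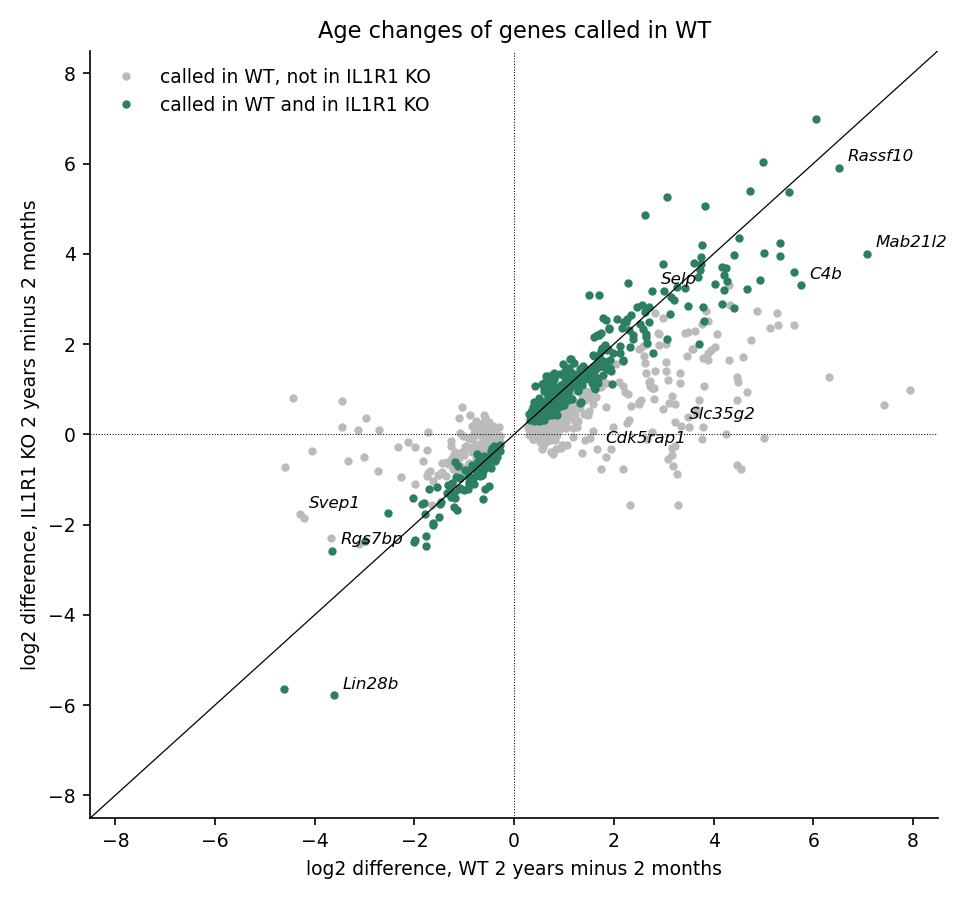
Each point is 1 of the 941 genes called in WT, by its log2 difference between 2 years and 2 months in WT (horizontal axis) and in libraries labelled IL1R1 KO (vertical axis), green where it was also called there, and the line marks equal change. Of the 664 rises 324 and of the 277 falls 108 are green, and 0 genes were called in opposite directions.

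The age change was also measured in libraries labelled IL1R1 KO, which share no library with WT. Their Il1r1 counts were 231 ± 40.2 (SD, n = 3) in the young and 322 ± 67.7 (SD, n = 5) in the aged mice, beside 179 ± 54.8 (SD, n = 4) and 276 ± 88.2 (SD, n = 4) in WT, so its transcript was not lost. The sources used here do not say whether the counted reads lie outside the targeted part, and each statement on these libraries rests on their label. There 869 genes were higher (5.12%) and 491 lower (2.90%) at 2 years, 1360 in all. The total was 710 with the IL1R1 KO library whose title and age label differ counted as 2 months old, and 461 without the 2-month libraries with Mpo above 10000, and the shares that follow were not recomputed there. Of the WT rises 324 (48.8%) were also called higher there, which is 37.3% of its higher genes, and of the WT falls 108 (39.0%) were called lower, 21.996% of its lower genes. Both comparisons used the same pooled spread per gene, so their calls are not independent. Selp rose by 3.18 ± 0.17 in the libraries labelled IL1R1 KO, Gpr183 by 3.77 ± 0.27, Sult1a1 by 1.64 ± 0.11 and Rassf10 by 5.91 ± 0.72. Of the 21 and 24 tested genes of the HSC ageing lists 18 and 19 were called higher there.

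A difference of the age changes, tested as an interaction, passed in 67 genes (0.395%). Without 1 WT library the count ranged from 6 (without replicate 2 at 2 years) to 109 (without replicate 3 at 2 years), and it was 0 with the IL1R1 KO library of 1 year whose age label says 2 months placed at 2 months. Among genes that rose in WT, Cdk5rap1 was at 508, 447, 487 and 488 at 2 months and 1678, 1849, 1639 and 1074 at 2 years (1.66 ± 0.27, adjusted p = 1.68e-04). In the libraries labelled IL1R1 KO its change was -0.33 ± 0.28, adjusted p = 0.570, and the difference was -1.99 ± 0.39, adjusted p = 0.0221. Slc35g2 was at 7.59, 1.97, 11.4 and 29.4 at 2 months and 95.2, 121, 108 and 78.6 at 2 years in WT (3.34 ± 0.50, adjusted p = 5.78e-05) and changed by 0.19 ± 0.52, adjusted p = 0.890 in the libraries labelled IL1R1 KO, a difference of -3.15 ± 0.72, adjusted p = 0.0430.

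For the interferon gamma GTPases and class II genes the difference did not pass the test for any member. Tgtp2 changed by 0.11 ± 0.14, adjusted p = 0.708 in the libraries labelled IL1R1 KO, a difference of -0.79 ± 0.19, adjusted p = 0.0572, and Irgm2 by 0.12 ± 0.16, adjusted p = 0.747, a difference of -0.73 ± 0.22, adjusted p = 0.156. H2-Eb1 changed by 0.83 ± 0.33, adjusted p = 0.125, a difference of -0.81 ± 0.45, adjusted p = 0.596. In the libraries labelled IL1R1 KO 5 of the 25 interferon gamma members were called higher and 0 lower. Of the 17 class II members 0 were called higher there and 3 lower. The 2-month libraries with this label were uneven, with H2-Eb1 at 3109 ± 2290.4 (SD, n = 3). The medians were 0.25 and 0.44, against 0.42 and 0.50 in WT. Immediate early genes, switched on quickly when cells are stimulated or handled, gave 0 rises and 1 fall among 28 in WT (median -0.49). The fall was that of Dusp2, a phosphatase of MAP kinases (-0.93 ± 0.26, adjusted p = 0.0318), and its call was lost without 2-month library 1, 2 or 3 or 2-year library 2 or 4 (adjusted p up to 0.114). In the libraries labelled IL1R1 KO 13 of the 28 were called higher (median 1.47).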

How the data were processed

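Libraries of wild-type HSCs (4 of 2 months, 4 of 2 years, 5 of 1 year) and of HSCs labelled IL1R1 KO were compared. Libraries labelled germ-free were not compared but entered the filter on low values, the fit and its spread per gene. DESeq2 1.26.0, Salmon 1.2.0.0, cutadapt 2.10 and FastQC 0.11.9 appear in the submitters' processing notes, with no role stated. The values used are a signal per gene that the authors deposited, named normalized counts, with sums of 28.1 to 29.1 M in the 8 main libraries. They are not whole and whole reads could not be recovered, so no count model was run. Precision depends on depth, for which 20.0 to 29.6 M reads is a rough estimate. Values were analysed as log2(value + 1) with limma 3.58.1 in R 4.3.3, 8 group means over 30 libraries, mean-variance trend and robust variances, Benjamini-Hochberg adjustment over 16958 genes and a threshold of 0.05. On simulated data with 200 changed genes the fit recovered 78 of 100 at a log2 change of 1 and 98 of 100 at 2, with 5 unchanged genes called. The changed genes were drawn only from those of higher level and lower spread, and the noise was drawn separately for each gene. These rates therefore do not cover genes near 0 or unevenness that many genes of a library share. The members and the 41 gene lists were chosen with earlier results of these data known. Named genes are the 15 largest changes in each direction with no overlap and a mean of at least 50, the 10 smallest p in each direction, up to 6 called members per list, and the 4 largest differences in each direction between genotypes. Further list members were named with their values seen. Promoters are RefSeq (GRCm38.p6), gene positions GENCODE M21 (GRCm38). The main fit did not use the replicate numbers to pair the samples. Some members counted in the lists are not reported here by name.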

Additional observations from a re-analysis of the deposited data

Results flagged for a closer look

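Among 402 groups of 4 values, 24 held 1 library whose gap to the next, as a share of the whole range, was above the 95% limit for 4 samples, and chance alone marks about 1 group in 20. At 2 months replicate 1 stood apart for Rassf10 (1.000), Ntf3 (1.000), Ccbe1 (0.845) and Bcl3 (0.847), replicate 2 for Tnfrsf1b (0.904), replicate 3 for Rgs7bp (0.843) and Sphk1 (0.931), and replicate 4 for Selp (0.932) and Ifit1 (0.933). Rassf10 and Ntf3 were listed at 0 in the 3 other young libraries. At 2 years replicate 1 stood apart for Spint1 (0.893), Gpr183 (0.909), Plscr2 (0.922), Cavin2 (0.837), Plagl1 (1.000) and Ccnd1 (0.942). Replicate 3 of 2 years did so for Gadd45g (0.857), Cox5a (0.967), Atp5b (0.978) and Eif2s3y (0.914). It also had the lowest mean level of DNA replication genes (0.937) and stood apart in that of proteasome genes (0.958). Replicate 2 did so for Pcna (0.874) and the lymphoid priming list (0.838), and replicate 4 for Cd55 (0.871).

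For 8 named genes the age change of the libraries labelled IL1R1 KO differed from that of WT by the interaction test of limma. The difference (labelled KO minus WT, log2) was 7.44 for the costimulatory receptor gene Cd28 (adjusted p = 0.0395), 6.53 for the Notch target Hes1 (adjusted p = 0.0430), 5.01 for the kinase gene Sik1 (adjusted p = 0.0335) and 3.69 for Skil, a repressor of TGF-beta signalling (adjusted p = 0.0250). It was -3.15 for Slc35g2 (adjusted p = 0.0430), -1.99 for Cdk5rap1 (adjusted p = 0.0221), -1.23 for Rsrp1 (adjusted p = 3.22e-04) and -1.20 for Paxbp1 (adjusted p = 0.0221). With the library whose age labels disagree placed at 2 months, 0 genes passed this test.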

How the results depend on the processing

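Of 152 named genes called in WT at 2 years against 2 months, 55 lost their call under none of the 26 alternatives and 0 changed direction under any. One of the 55, Nlgn1, was not tested with a minimum of 50. The one alternative chosen after seeing the data was averaging replicates 2 and 4 at 2 months, which left 643 genes called, 625 of them among the 941, with 147 lower. With only the 2 groups compared in the fit 342 genes were called, 269 higher and 73 lower. Array weights gave 180 lower, and leaving out the 6 libraries of 2 months with Mpo above 10000 gave 126 lower and 461 called in the labelled IL1R1 KO. With single WT libraries left out the counts were 680 to 926 called, 497 to 626 higher, 160 to 301 lower, 1329 to 1569 in the labelled IL1R1 KO, 0 to 3 between 2 years and 1 year, and 6 to 109 for the difference of age changes. That difference gave 113 genes with only the groups compared, 25 without the variance trend, 106 with array weights, 38 with the B and plasma cell covariate and 112 without the high-Mpo libraries. Placing the library with disagreeing age labels at 2 months gave 0 for it and 710 in the labelled IL1R1 KO. The count of 2 between 2 years and 1 year became 0 with a pseudocount of 0.5, a minimum of 50 or no trend, 1 with equal sums, equal upper quartiles, only WT libraries, either covariate, the averaged pair or no high-Mpo libraries, and 9 with array weights. Rises made up 66.2% to 72.4% of calls under the 3 other scalings, beside 70.6%. Same-numbered samples had deviations correlated at -0.05 to 0.04, and differently numbered ones at -0.06 to 0.08. Such correlations cannot tell whether same-numbered samples share a sort or a batch. A fit with the replicate block gave 0 between 2 years and 1 year over all libraries. With the replicate block in only the groups compared it gave 181 called, 155 higher, 26 lower, 7 between 2 years and 1 year and 268 in the labelled IL1R1 KO.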
